A study of Mus musculus with 9 samples.

Results

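The creatine kinase system of the postnatal day 7 mouse ventricle was followed through 7 genes, which were taken by name: the cytosolic creatine kinases Ckm and Ckb, the mitochondrial creatine kinases Ckmt1 and Ckmt2, the creatine transporter Slc6a8 and the creatine synthesis enzymes Gatm and Gamt. All 7 were among the 38293 genes of the count table, and all 7 passed the filter on low counts that left 15318 genes for testing. RNA came from whole ventricles of 5 Arid1a f/f control mice, which carried the floxed gene without Cre, and of 4 aMHC-Cre;Arid1a f/f mice (Arid1a cKO), all at day 7. The alpha myosin heavy chain promoter drives this Cre in cardiomyocytes, so deletion was not directed at the other cells of the ventricle, and the lines were kept on a C57B/6 J background. Arid1a codes for a component of BAF-type complexes, which shift nucleosomes, and the comparison asked how gene expression in the neonatal heart differs without it.

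Creatine kinase moves a phosphate group between ATP and creatine, so that phosphocreatine can buffer and carry energy from mitochondria to the contractile apparatus. The cytosolic enzymes work as dimers of the muscle subunit (Ckm) and the brain subunit (Ckb), and the muscle subunit is the main form of mature striated muscle while Ckb is typical of brain, smooth muscle and the early heart. The mitochondrial enzymes sit in the intermembrane space, the sarcomeric form Ckmt2 in striated muscle and the ubiquitous form Ckmt1 elsewhere. Heart muscle imports most of its creatine through Slc6a8, while Gatm and Gamt, which make creatine from arginine, glycine and a methyl group, are best known from kidney and liver.

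The stretches just upstream of the transcription start of the 3 creatine kinase genes whose levels and shares are described most fully are shown so that the isoform genes can be compared by their letters. They are 250 bases each, from RefSeq on GRCm38.p6, read 5′ to 3′ on the strand of the gene and ending at the base before the start site. Ckmt2 is at chr13:91876886-91877135 on the minus strand, Ckm at chr7:19410844-19411093 on the plus strand and Ckb at chr12:111672339-111672588 on the minus strand. Capitals mark matches, on either strand, to any of 6 motifs.
Ckmt2: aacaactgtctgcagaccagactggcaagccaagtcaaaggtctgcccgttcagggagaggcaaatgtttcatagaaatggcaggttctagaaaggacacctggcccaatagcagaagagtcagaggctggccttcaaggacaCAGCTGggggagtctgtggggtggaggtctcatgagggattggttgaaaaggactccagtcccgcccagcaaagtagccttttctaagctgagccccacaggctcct
Ckm: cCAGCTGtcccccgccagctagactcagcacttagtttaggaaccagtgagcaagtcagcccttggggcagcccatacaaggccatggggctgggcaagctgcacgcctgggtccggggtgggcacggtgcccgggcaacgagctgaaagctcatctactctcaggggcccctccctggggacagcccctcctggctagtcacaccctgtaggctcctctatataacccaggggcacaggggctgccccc
Ckb: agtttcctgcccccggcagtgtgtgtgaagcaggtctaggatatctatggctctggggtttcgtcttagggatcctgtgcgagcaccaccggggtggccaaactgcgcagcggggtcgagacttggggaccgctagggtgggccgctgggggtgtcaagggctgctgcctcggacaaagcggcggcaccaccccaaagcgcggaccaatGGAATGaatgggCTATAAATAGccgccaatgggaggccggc
The motifs were the muscle E-box CAGCTG, the M-CAT element CATTCC bound by TEAD factors, the estrogen-related receptor element TCAAGGTCA, TATAAA, and the MEF2 and CArG (serum response factor) elements by name. Ckmt2 held CAGCTG at -107 to -102 from the start site and Ckm at -249 to -244, a motif found in 13% of the 32851 mouse promoters of this length. Ckb held the M-CAT element, read on the other strand as GGAATG, at -41 to -36 (12.6% of promoters). It also held a MEF2 match at -29 to -20 (0.508% of promoters), and these same letters contain TATAAA at -28 to -23 (12.4%). No TCAAGGTCA (0.387%) or CArG (1.47%) match was found in the 3 stretches. Elements farther from the start site, such as those of an enhancer, were not searched. The Ckm stretch lies inside the Ckm gene as GENCODE places it (19404776 to 19422841), so other annotated starts of Ckm were not covered. RefSeq promoters were matched for 6 of the 7 genes, all but Slc6a8.

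Total counts ran from 31011055 to 40073801 per library. Arid1a itself lay at 128 to 148 CPM (counts per 1e6 counts, scaled for library composition) in control and at 100.3 to 113 CPM in Arid1a cKO libraries, with a log2 fold change of -0.39 (SE 0.06). Its adjusted p was 0.0013, by the quasi-likelihood test of edgeR that gave every adjusted p below unless another tool is named. The 9 libraries also split by a feature other than genotype. Control replicates 1 and 2 and cKO replicates 1 to 3 had 0.345 to 0.521 CPM of the ribosomal protein gene copy Rps3a3, while control replicates 3 to 5 and cKO replicate 4 had 99.7 to 112 CPM. They form an Rps3a3-low set of 5 and an Rps3a3-high set of 4 libraries. The labels do not say what separates them, so values are also given within each set.

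Ckmt2, the sarcomeric mitochondrial creatine kinase, fell 1.98-fold in Arid1a cKO ventricles, and it was the only one of the 7 genes to pass the test. Ckb was higher on average in cKO, with a wide spread that left it short of the threshold. Ckm, Slc6a8, Gatm, Gamt and Ckmt1 did not pass either. At an adjusted p under 0.05, 1 of 7 members was lower and 0 were higher, against 8.03% lower and 8.25% higher among all tested genes. At an unadjusted p under 0.05 there were 2, Ckmt2 and Ckb, and the Wald test of DESeq2 passed the same 2. Among all tested genes, 29.7% had an unadjusted p under 0.05, 20.5% passed in DESeq2, 16.3% passed in edgeR in either direction and 6.72% did so with a change past 1.5-fold as well. With counts this close to those shares, the changes are described gene by gene.

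**Figure D1:**
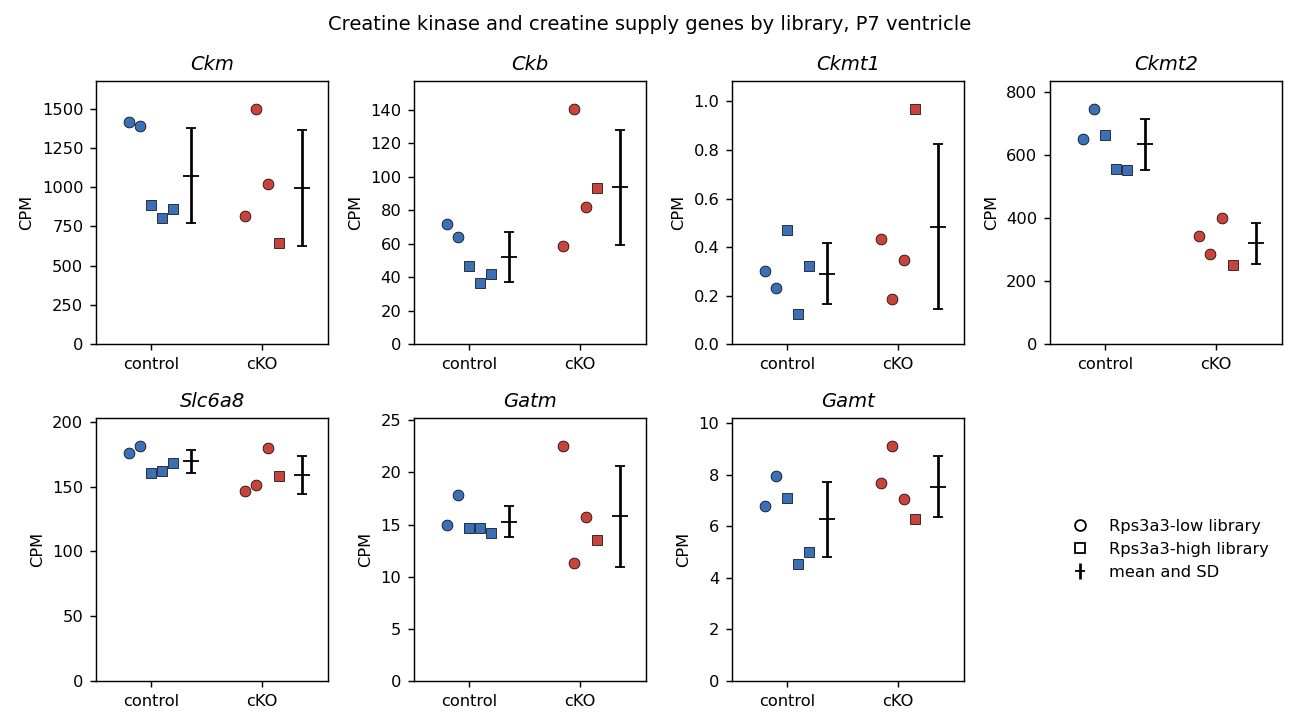
Each panel plots the CPM of 1 gene (vertical axis, from 0) in the 5 control (blue) and 4 Arid1a cKO (red) libraries, with circles for the Rps3a3-low and squares for the Rps3a3-high set and the group mean and SD as a bar. The Ckmt2 points do not overlap between the groups, 550.4 to 744 CPM against 250.2 to 398 CPM, whereas those of the other 6 genes do.

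Ckmt2 (chromosome 13, 91853387 to 91876885) had CPM values of 650.4, 744, 663, 556 and 550.4 in the control libraries (replicates 1 to 5 in order), against 343, 286, 398 and 250.2 in the cKO libraries (replicates 1 to 4). All 4 cKO values were below the lowest control value, a separation in this direction that 8.58% of all tested genes showed. Group means were 633 ± 81.1 CPM (SD) over the 5 control libraries and 319 ± 65.0 CPM (SD) over the 4 cKO libraries, giving a log2 fold change of -0.99 (adjusted p = 0.00057, SE 0.14) or 1.98-fold lower. This passed the further threshold of a 1.5-fold change, which 2.72% of all tested genes passed in the lower direction. Taken separately, the Rps3a3-low libraries gave a log2 difference of -1.03 and the Rps3a3-high libraries -1.23, and the fall passed in each of the 9 fits that left out a library, with log2 fold changes of -1.11 to -0.89. Each library held at least 10341 counts of Ckmt2, so counting error was small beside the spread between libraries. Among the 1794 tested genes with a mean of at least 100 CPM, a limit set after the values were seen, 30 were called lower, and 9 of these, Ckmt2 included, fell at least as far as Ckmt2.

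The summed level of 12 cardiomyocyte markers was 68487 to 77236 CPM in control and 60591 to 65365 CPM in cKO, without overlap. Of the 12, 3 passed the test, all lower, where 8.03% of all tested genes were lower. DESeq2 passed 5, all lower, where 20.5% of all tested genes passed in either direction. The 3 that passed in edgeR were Pln (-0.45), Myl2 (-0.43) and Atp2a2 (-0.23). The other 9 did not pass. Lower among them were Myh7 (-0.34), Tnni3 (-0.31), Tnnt2 (-0.23), Actc1 (-0.14), Myl3 (-0.13), Myh6 (-0.12) and Ryr2 (-0.11). Nkx2-5 (0.40) and Mybpc3 (0.04) were higher. In bulk tissue fewer cells of a type and less RNA per cell cannot be told apart. Set against that sum, Ckmt2 stood at 8.04 to 9.63 CPM per 1000 CPM of the markers in control and at 4.13 to 6.29 in cKO. The log2 ratio of the group means on this scale was -0.77, beside the log2 fold change of -0.99 from the fit. The marker sums differed too little between libraries for this division to make the groups overlap, so their separation on this scale adds nothing.

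Ckm (chromosome 7, 19404776 to 19422841), the muscle subunit, was the most abundant member by counts. It had CPM values of 1415, 1389, 887, 806 and 863 in the control libraries (replicates 1 to 5 in order), against 819, 1496, 1017 and 647 in the cKO libraries (replicates 1 to 4). The groups overlapped widely, and the spread within each, 28.3% of the mean in control and 36.9% in cKO, was larger than the difference between them. Group means were 1072 ± 303 CPM (SD) over the 5 control libraries and 995 ± 367 CPM (SD) over the 4 cKO libraries, with a log2 fold change of -0.11 (adjusted p = 0.837, SE 0.28). Much of that spread followed the library sets: control libraries averaged 1402 CPM in the Rps3a3-low and 852 CPM in the Rps3a3-high set. With genotype in the fit, Ckm was lower in the Rps3a3-high set, with a log2 difference of -0.74 (adjusted p = 0.0306, SE 0.16), the only member to pass in that comparison, in which 4.81% of all tested genes passed. Within the sets the cKO difference of Ckm was -0.38 (low) and -0.39 (high), and with the set as a term it was -0.36 (adjusted p = 0.144), still short of the threshold. Without control replicate 1, control replicate 2 or cKO replicate 4 its log2 fold change was 0.01, 0.00 and 0.05.

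Ckb (chromosome 12, 111669361 to 111672338), the brain subunit, had CPM values of 71.5, 64.2, 46.6, 36.7 and 42.1 in the control libraries (replicates 1 to 5 in order), against 58.9, 140.2, 82.2 and 93.1 in the cKO libraries (replicates 1 to 4). Only cKO replicate 1 lay inside the control range. Group means were 52.2 ± 14.9 CPM (SD) over the 5 control libraries and 93.6 ± 34.2 CPM (SD) over the 4 cKO libraries, giving a log2 fold change of 0.84 (SE 0.28) with an adjusted p of 0.0792. The result sat near the threshold: the same change passed under DESeq2 (0.84, adjusted p = 0.0373) and without cKO replicate 1 (1.01, adjusted p = 0.033 by edgeR), and without cKO replicate 2 it was 0.58 (adjusted p = 0.191). Among Rps3a3-low libraries the difference was 0.37 and among Rps3a3-high libraries, with a single cKO library, it was 1.15. Of 14 smooth muscle and mural markers, 3 passed higher and 1 lower in edgeR (8.25% and 8.03% among all tested genes). DESeq2 passed 4 higher and 1 lower, where 20.5% of all tested genes passed in either direction. The total of the 14 markers was 3494 to 4051 CPM in control and 5310 to 6793 CPM in cKO. Most of that difference was Acta2 (661 CPM in control and 2833 CPM in cKO). Without it the sums overlapped, at 2903 to 3220 CPM and 3205 to 3498 CPM, though Cnn1 (2.78, from 4.03 to 27.7 CPM, adjusted p = 1.1e-05) and Des (0.42, adjusted p = 0.0152) also passed higher. Smtn passed lower (-0.56, adjusted p = 0.0414), and Tagln (0.31), Myh11 (-0.30) and Mylk (-0.13) did not pass in edgeR. Nor did Notch3 (0.27), Lmod1 (0.24), Cspg4 (0.17), Pdgfrb (0.15), Rgs5 (0.11), Abcc9 (-0.07) and Kcnj8 (-0.09). All 14 markers are named here, a choice made after their values were seen. The study describes Acta2 as a contractile protein whose level normally falls as the heart matures after birth. Which cells the higher Acta2 came from was not tested. The 13 Schwann and neuronal markers summed to 25.0 to 30.3 CPM in control and 24.4 to 32.4 CPM in cKO, with overlap. Against the summed cardiomyocyte markers Ckb stood at 0.533 to 0.927 CPM per 1000 CPM in control and at 0.962 to 2.15 in cKO. The part of these other cell types in the level of Ckb was not tested.

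**Figure D2:**
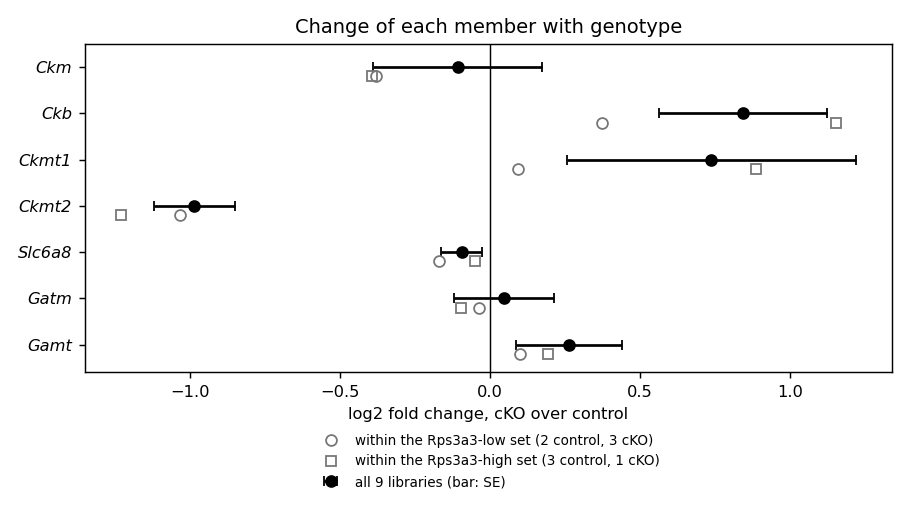
Black points give the log2 fold change of each member, cKO over control, from all 9 libraries, with SE bars, and open grey symbols give the difference of mean log2 CPM among Rps3a3-low libraries (circles) and the Rps3a3-high set (squares). Ckmt2 lies between -0.99 and -1.23, Ckb ranges from 0.37 to 1.15, and Ckm moves from -0.11 to -0.38 and -0.39 within the sets.

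Among control libraries the proportion of Ckb to Ckm was steadier than either level, and it was higher in every cKO library. Divided by annotated exon length (2913 bases for Ckm and 2895 for Ckb), Ckb made up 4.84%, 4.44%, 5.02%, 4.38% and 4.69% of the cytosolic creatine kinase level in control replicates 1 to 5. In cKO replicates 1 to 4 it made up 6.75%, 8.62%, 7.52% and 12.6%. The groups did not overlap. The mean was 4.67 ± 0.267% (SD, n = 5) in control and 8.88 ± 2.63% (SD, n = 4) in cKO. These shares combine members and are given as a description, with no test, and with coding length (1143 bases for both) the means were 4.65% and 8.83%. Relative to Ckm, Ckb was thus higher in all 4 cKO libraries, although in edgeR neither gene passed the test on its own level (in DESeq2 Ckb did).

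The mitochondrial genes made up 46.2 to 58.2% of the level per exon length of all 4 creatine kinases in control and 25.5 to 43.4% in cKO libraries, again without overlap. The lowest value, 25.5%, was that of cKO replicate 2, which also had the highest Ckm level. Means were 53.0 ± 4.89% (SD, n = 5) and 37.6 ± 8.17% (SD, n = 4). Ckmt1 held at most 0.0917% of the creatine kinase level in any library. The share therefore restates the fall of Ckmt2 against Ckm and Ckb and is no separate result. The size of this share depends on the length used: with coding length (1257 bases for Ckmt2) it was 34.5% in control and 22.1% in cKO. Exon length joins the exons of all annotated transcripts, which number 3 for Ckm, 5 for Ckb and 1 for Ckmt2.

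**Figure D3:**
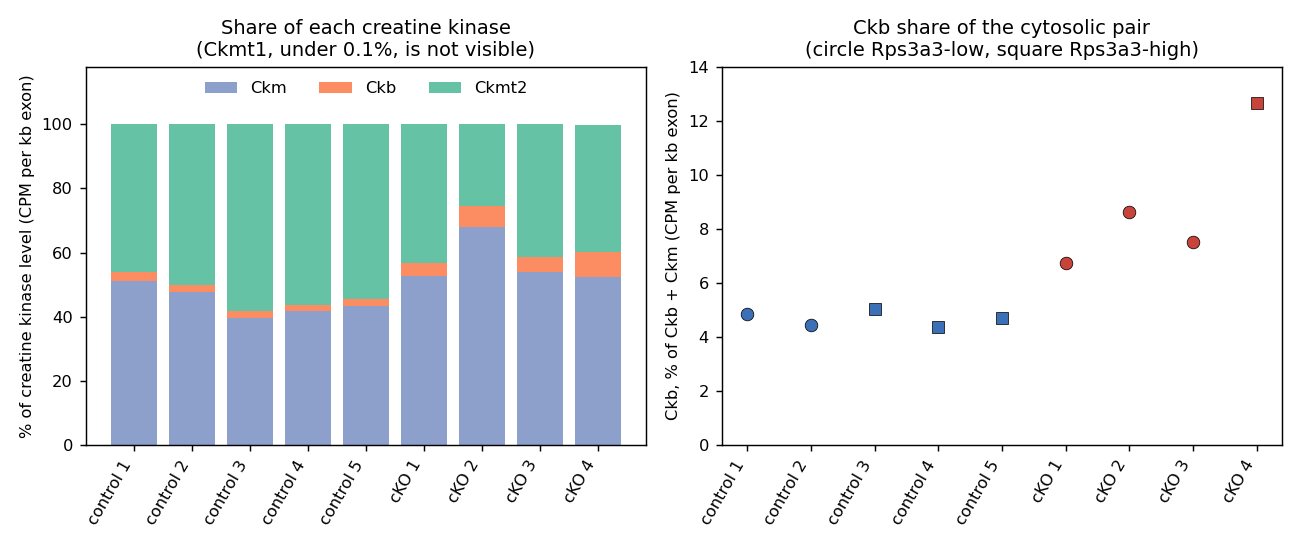
The left panel stacks, for each library, the percent of the creatine kinase level (CPM per kb of exon) held by Ckm, Ckb and Ckmt2. The right panel plots the Ckb percent of Ckb plus Ckm, with control in blue and cKO in red; control libraries sit between 4.38 and 5.02% and cKO libraries between 6.75 and 12.6%.

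Ckmt1 (chromosome 2, 121357714 to 121363737), the ubiquitous mitochondrial form, was close to the limit of detection in every library. It had 10, 8, 17, 4 and 10 counts in control replicates 1 to 5 and 14, 7, 12 and 40 counts in cKO replicates 1 to 4. The count of 40 in cKO replicate 4 stood above the rest, and the other 3 cKO libraries overlapped the control libraries. The log2 fold change of 0.74 (adjusted p = 0.336, SE 0.48) was 0.13 without cKO replicate 4. Ckmt1 amounted to 0.0273 ± 0.0117% (SD, n = 5) of the mitochondrial creatine kinase level per exon length in control and 0.0989 ± 0.0885% (SD, n = 4) in cKO. Without cKO replicate 4 the cKO share was 0.0553%. Ckmt2 held nearly all of the mitochondrial level in both groups either way.

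Slc6a8 (chromosome X, 73673150 to 73682502), which carries creatine into the cell, was the steadiest member. It had CPM values of 176, 181, 160.2, 162 and 169 in the control libraries (replicates 1 to 5 in order), against 147, 151, 179 and 158 in the cKO libraries (replicates 1 to 4). The groups overlapped, with means of 169.6 ± 8.93 CPM (SD, n = 5) and 159 ± 14.5 CPM (SD, n = 4) and a log2 fold change of -0.10 (adjusted p = 0.393, SE 0.07). Across all alternatives tried the difference stayed between -0.17 and -0.05. Both groups held animals with high and with low Xist, the RNA of the inactive X chromosome, and Slc6a8 overlapped between them, at 158 to 181 CPM in the 4 libraries with high Xist and 147 to 176 CPM in the 5 with low Xist.

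The synthesis enzymes were expressed at low levels. Gatm (chromosome 2, 122594467 to 122611303), which joins arginine and glycine into guanidinoacetate, had CPM values of 14.98, 17.9, 14.6, 14.7 and 14.2 in the control libraries (replicates 1 to 5 in order), against 22.5, 11.3, 15.8 and 13.5 in the cKO libraries (replicates 1 to 4). The cKO libraries reached both above and below the control range, and the SD was 9.66% of the mean in control and 30.7% in cKO. The log2 fold change was 0.05 (adjusted p = 0.883, SE 0.17), and its sign changed among the alternatives.

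Gamt (chromosome 10, 80258151 to 80261012), which methylates guanidinoacetate to creatine, had CPM values of 6.77, 7.96, 7.09, 4.53 and 5.01 in the control libraries (replicates 1 to 5 in order), against 7.68, 9.12, 7.06 and 6.29 in the cKO libraries (replicates 1 to 4). The groups overlapped, and the log2 fold change of 0.26 (adjusted p = 0.35, SE 0.18) stood beside differences of 0.10 (Rps3a3-low libraries) and 0.19 (Rps3a3-high libraries).

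Compared per kb of exon, the order of levels in control ventricles was Ckmt2 (426 ± 54.6 CPM per kb), Ckm (368 ± 104), Slc6a8 (32.6 ± 1.71), Ckb (18.0 ± 5.15), Gatm (5.09 ± 0.492), Gamt (4.34 ± 1.003) and Ckmt1 (0.116 ± 0.0508; SD, n = 5 for each). Neighbours overlapped between libraries for Ckmt2 and Ckm and for Gatm and Gamt, and the other neighbours did not. In cKO ventricles Ckm (342 ± 126 CPM per kb, SD, n = 4) stood above Ckmt2 (215 ± 43.7), and Ckb (32.3 ± 11.8) beside Slc6a8 (30.5 ± 2.78), each pair with overlap. Per kb of coding length Ckm exceeded Ckmt2 in control as well (938 against 503 CPM per kb), so the order of these abundant forms in control depends on the length used.

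To place the members among the other genes, the genes with the most similar profile over the 9 libraries were found by Pearson correlation of log2 CPM, as a description over libraries that share genotype and library set. Ckm was most like Cox6a2, a muscle subunit of cytochrome c oxidase (0.979), Myl3, a ventricular myosin light chain (0.978), and Sorbs3 (0.971). After group means were subtracted the closest were Efna1 (0.990), Myl3 (0.986) and Emc9 (0.985). Ckmt2 was most like Rph3al (0.997), Asb15 (0.989) and Cmss1 (0.986), all of them lower in cKO, with log2 fold changes of -0.80, -1.91 and -0.93. After subtraction Rph3al came first again (0.983), followed by Coq10a (0.959) and Tmem229b (0.956). Ckb was most like Naglu (0.996), Slc25a39 (0.994) and Fbxl19 (0.991), with log2 fold changes of 0.42, 0.43 and 0.38, and after subtraction like Naglu (0.998), Mrpl55 (0.993) and Lmf2 (0.991). For Slc6a8 the closest genes were Lpin1 (0.890), Cplane1 and Sec24b, for Gatm Sh3d21 (0.963), Zfp39 and Ttc21b, and for Gamt Psenen (0.963), Arhgap45 and Rac2.

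Around the members, genes of adenylate phosphotransfer and of nucleotide exchange across the mitochondrial membranes were examined, since they share this energy route. Of 19 listed genes 15 were tested, 5 were lower and 1 was higher, beside 8.03% lower and 8.25% higher among all tested genes, and the median log2 fold change was -0.05 against 0.01 for all tested genes. Ampd3, an AMP deaminase, had group means of 60.5 ± 5.23 CPM (SD) over the 5 control libraries and 33.0 ± 3.28 CPM (SD) over the 4 cKO libraries and fell by 0.88 in log2 (adjusted p = 4.3e-05, SE 0.09). Ak1, the cytosolic adenylate kinase of muscle, fell by 0.48 (adjusted p = 0.0013, SE 0.08). Vdac1 and Vdac3, porins of the outer membrane, changed by -0.25 and -0.23 and the phosphate carrier Slc25a3 by -0.23. Vdac3 lost its pass in 5 of the 9 fits that left out a library (those without control replicate 3 or 4 or cKO replicate 2, 3 or 4), with adjusted p-values up to 0.0792. Slc25a5, the ATP/ADP carrier isoform of dividing cells, rose by 0.29 (adjusted p = 0.012, SE 0.07). In the Rps3a3-low libraries alone Slc25a5 (0.23, adjusted p = 0.222), Vdac1, Vdac3 and Slc25a3 did not pass, while Ampd3 and Ak1 did. Slc25a4, the muscle isoform of that carrier, stood at 3030 ± 295 and 2884 ± 309 CPM with a log2 fold change of -0.07 (adjusted p = 0.642), and that of Vdac2 was -0.03 (adjusted p = 0.752), neither of which passed. Of the genes in this list, none changed as far as Ckmt2 among those that passed, Ampd3 being the nearest.

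Of the genes that supply arginine, glycine and methyl groups for creatine synthesis, 20 were tested (25 listed), and 3 were higher and 2 lower, with a median of 0.06. Among all tested genes 8.25% were higher and 8.03% lower, and in the Rps3a3-low libraries alone only Shmt1 passed. Asl, which releases arginine, rose by 0.68 (adjusted p = 0.0022, SE 0.12), Shmt1, which makes glycine, by 0.57 (adjusted p = 0.0051, SE 0.12) and the arginine transporter Slc7a2 by 0.56 (adjusted p = 0.0077, SE 0.12). The arginine transporter Slc7a1 changed by -0.36 (adjusted p = 0.0123, and 0.0708 in the Rps3a3-low libraries) and Mat2a, which makes the methyl donor, by -0.25 (adjusted p = 0.0242). Mat2a did not pass without control replicate 3 or 4 or cKO replicate 2, 3 or 4 (adjusted p up to 0.0677). Oat, at -0.16 (adjusted p = 0.0758), and Ahcyl1, at 0.04 (adjusted p = 0.742), did not pass in edgeR. DESeq2 passed 7 genes of the list (4 higher and 3 lower), Oat among them (adjusted p = 0.0293). In the list of Slc6 transporters and the creatine exporter Slc16a12, 6 of 20 genes were tested and 0 passed in edgeR, with 0 at an unadjusted p under 0.05 and 0 in DESeq2. The log2 fold change was 0.24 for Slc16a12 (adjusted p = 0.407, SE 0.18; 0.060 without cKO replicate 4 and 0.38 without cKO replicate 2) and -0.06 for the taurine transporter Slc6a6 (adjusted p = 0.762).

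The muscle creatine kinase is partly held at the M-band of the sarcomere. Of 8 M-band and titin docking genes, all tested, 3 were lower and 1 was higher, beside 8.03% and 8.25% of all tested genes, with a median of -0.16. Myom3 changed by -1.40 (adjusted p = 0.00061, SE 0.20) at a low level of 2.46 CPM in control, Obsl1 by -0.61 (adjusted p = 0.0119, SE 0.14) and Myom2, the M-protein, by -0.34 (adjusted p = 0.0068, SE 0.07). Fhl1 rose by 0.40 (adjusted p = 0.00059, SE 0.06). In the Rps3a3-low libraries alone Myom2 did not pass (-0.41, adjusted p = 0.053). Ttn at -0.07 and Myom1 at -0.02 did not pass. The list of factors known to act at creatine kinase genes had 24 tested members of 29, of which 3 were lower and 0 higher in edgeR and in DESeq2 (5 at an unadjusted p under 0.05 in edgeR), with a median of -0.03. Of all tested genes 16.3% passed in either direction, and in the Rps3a3-low libraries alone 1 of them, Mef2d, passed. The 3 lower genes were Mef2c at -0.52 (SE 0.09), Mef2d at -0.36 (SE 0.05) and Tead2 at -0.33 (SE 0.08), the last not passing without cKO replicate 3 (adjusted p = 0.0636). Mef2a at -0.11 (adjusted p = 0.339) and Tcf4 at -0.16 (adjusted p = 0.183) did not pass.

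**Figure D4:**
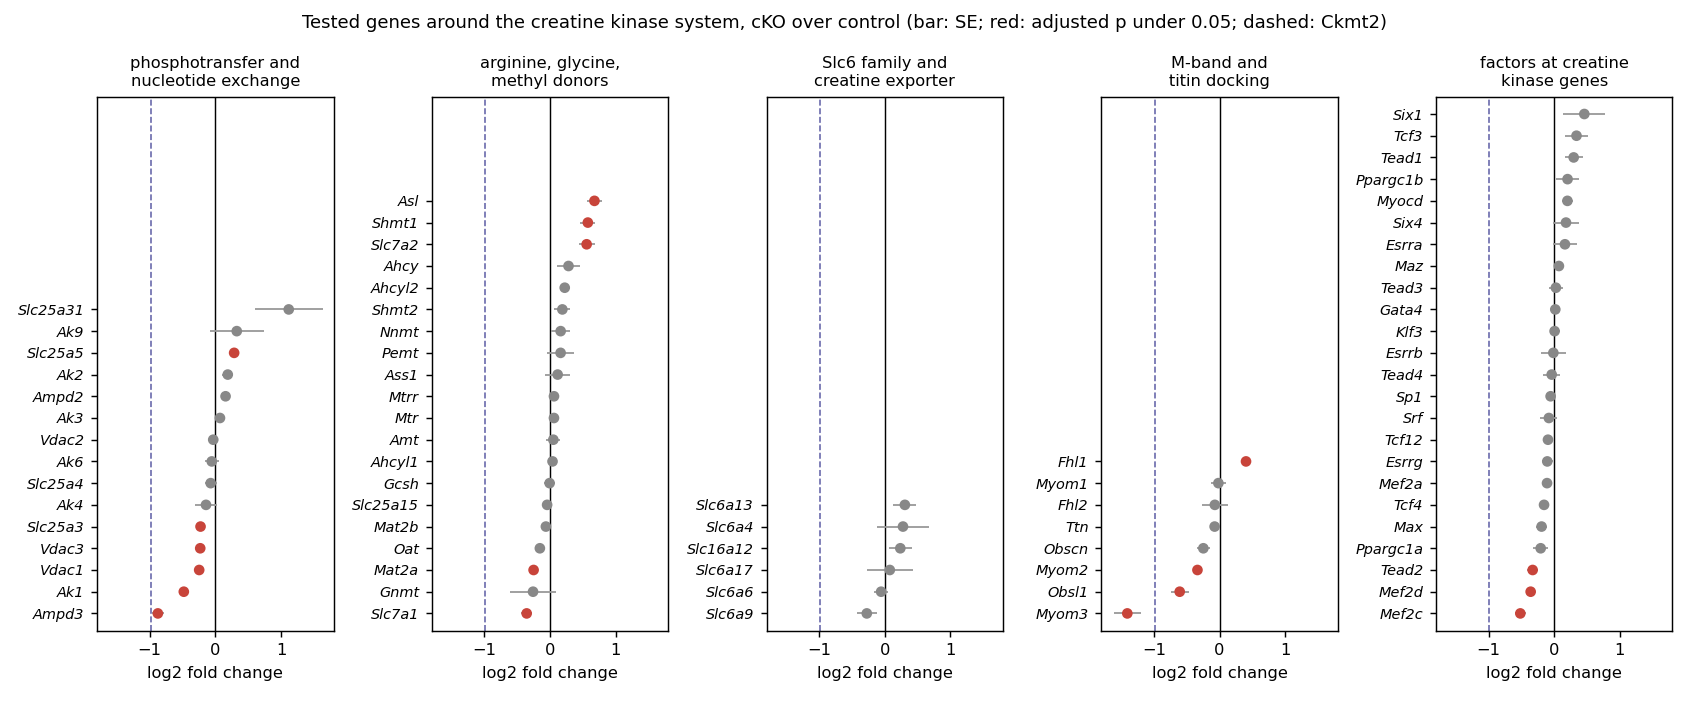
Each panel plots the log2 fold change, cKO over control, of the tested genes of 1 list with SE bars; red points passed an adjusted p of 0.05 and the dashed line marks Ckmt2 at -0.99. Of the red points only Myom3, at -1.40, lies beyond the line.

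Markers of other cell types were read in the same way, with 8.25% higher and 8.03% lower among all tested genes as the background of each count. Fibroblast markers (10 genes, 4 passing higher and 0 lower) summed to 7230 to 8589 CPM in control and 8807 to 9884 CPM in cKO, and atrial markers (5 tested, 3 higher) to 204 to 309 CPM and 959.7 to 2628 CPM, both without overlap. Nppa (114 CPM in control and 1720.4 CPM in cKO) made up most of the atrial difference. Without it the sums overlapped (102 to 194 CPM and 184 to 249 CPM). Myl7 (1.20, adjusted p = 0.0049) and Dkk3 (0.31, adjusted p = 0.0379) were higher too, Myl4 (0.16) and Sln (-1.25) did not pass and Bmp10 was too low to test. The passing fibroblast genes were Col1a1 (0.52), Tcf21 (0.48), Col1a2 (0.40) and Postn (0.33), none of which overlapped between the groups, and without Col1a1 the highest control sum (7580 CPM) barely reached the lowest cKO sum (7577 CPM). These genes were also named after their values were seen. Skeletal muscle markers, which would bring Ckm with them, summed to at most 8.56 CPM of 12 genes in any library, at 3.84 to 6.496 CPM in control and 6.96 to 8.56 CPM in cKO, and these overlapped without Tnni2. Endothelial (1 higher and 1 lower of 10), macrophage (0 of 10), erythroid (0 of 7), epicardial (1 higher and 1 lower of 7) and adipocyte (1 higher of 2 tested, Lep at 0) sums overlapped between the groups. Without Fabp4, most of their sum, the adipocyte markers were at 26.0 to 33.4 CPM in control and 49.2 to 59.5 CPM in cKO, and nearly all of that was Cidea. Of the Schwann and neuronal list 1 of 9 tested genes passed, higher. The macrophage, erythroid and skeletal muscle lists (the last 0 of 5 tested in edgeR) held 1, 2 and 4 genes at an unadjusted p under 0.05 in edgeR, and DESeq2 passed 1 gene, higher, in each of them. The part of these markers in the levels of the members was not tested.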

How the data were processed

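The authors prepared mRNA libraries with a stranded kit, sequenced them single end and mapped reads to mm10. The submitters' processing notes name STAR 2.4.2a and HTSeq 0.6.1. The annotation release and the strand setting of counting are not given in the sources used here, so antisense overlaps are uncertain. The deposited values are raw read counts per Ensembl gene, 1 column per library; 0 other sample columns were present. Total counts were 31011055 to 40073801.

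Symbols, positions and exon lengths came from GENCODE M21 (GRCm38), which held 36429 of the 38293 identifiers, carrying 99.82% of counts. Genes were kept by filterByExpr (minimum count 10), scaled by TMM and tested in edgeR 4.0.16 (quasi-likelihood, robust, R 4.3.3) with genotype alone, two-sided, with Benjamini-Hochberg adjustment over all 15318 genes tested. A gene passed at an adjusted p under 0.05 and was called if it also changed over 1.5-fold, the thresholds of the study, which used DESeq2. CPM are counts per 1e6 counts of the scaled total; within-set differences are of mean log2(CPM + 0.5). Each SE is the absolute log2 fold change divided by the root of F. The fit was tested on simulated data. The study describes the controls as littermates, and the labels do not say how the animals relate, so p-values measure the spread between these samples.

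Members and lists were chosen with earlier results of these data known. Named were every member, from each pathway list up to 6 passing genes of largest change and up to 2 further abundant genes, and the 3 genes most similar to each member of at least 1 CPM, taken from genes averaging 5 CPM or more. Alternatives were DESeq2 1.42.0, other scalings and filters, the replicate number as a block, Xist or library set as a term, the Rps3a3-low set alone and leaving out each library. Coding length, the within-set differences, the library set comparison and marker sums without 1 gene were added after the data were seen.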

Additional observations from a re-analysis of the deposited data

Results flagged for a closer look

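Gatm in control replicate 2, at 17.9 CPM, stood apart from the other 4 control libraries (14.2 to 14.98 CPM): its gap to the nearest of them took up more of the group's range than Dixon's 95% limit for 5 samples allows (0.71). It was 1 of 22 groups of values examined in this way, and chance flags about 1 in 20. Leaving this library out moved the log2 fold change of Gatm from 0.05 to 0.11 (adjusted p = 0.72 by edgeR).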

How the results depend on the processing

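Ckmt2 kept its direction and its pass in every alternative fitted (log2 fold change -1.11 to -0.89, adjusted p at most 0.0046). Ckb passed under DESeq2 (0.84) and without cKO replicate 1; over the fits that left out a library it ran from 0.58 to 1.01, and it was 0.37 within the Rps3a3-low set. Ckm ran from -0.37 to 0.051 in the leave-one-out fits, with a sign change without control replicate 1 (0.01), control replicate 2 (0.00) and cKO replicate 4 (0.051). Gatm ran from -0.17 to 0.18 in those fits (-0.17 without cKO replicate 1) and was -0.024 with the replicate number as a block, -0.033 with the library set as a term, -0.037 and -0.097 inside the low and the high set. Ckmt1 was 0.092 within the Rps3a3-low set and 0.13 to 1.01 in the leave-one-out fits. The cause of these changes was not tested.

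In the Rps3a3-low set alone, which holds fewer samples, 849 genes passed and 620 were called, against 2493 and 1030 with all libraries; Arid1a was at -0.33 (adjusted p = 0.0822), and 2 phosphotransfer, 1 arginine, glycine and methyl donor and 1 factor gene passed. Medians there were -0.14 (Slc6 list) and -0.37 (M-band list), and Vdac2 was 0.0048. With the library set as a term, 5 factor genes passed, the M-band median was -0.27 and Myom1 was 0.050. With no filter on low counts the phosphotransfer median was 0.065, the Slc6 median 0.0060 and 1 Slc6 gene passed. Leaving out single libraries moved the Slc6 median between -0.082 and 0.22 and the factor median between -0.048 and 0.012; Slc6a6 ran from -0.17 to 0.016 (0.016 and 0.012 without cKO replicates 1 and 2), and Myom1 from -0.15 to 0.061 (0.013, 0.012, 0.061 and 0.034 without control replicates 3 and 4 and cKO replicates 1 and 3).

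Same-numbered libraries did not deviate together (correlations of -0.05, 0.07, -0.01 and 0.30 for numbers 1 to 4, and 1 of 4 control libraries correlated best with its own number). Control replicates 3 and 4 both correlated best with cKO replicate 4, the only cKO library of the Rps3a3-high set. The library sets thus enter this check, and it cannot exclude shared litters or batches. With the replicate number as a block, 1729 genes passed and 879 were called, Ckmt2 was at -1.05 (adjusted p = 0.00067) and 3 genes of the arginine, glycine and methyl donor list passed; Slc25a5 (0.27, adjusted p = 0.066), Vdac3 (0.0698), Slc7a1 (-0.36, 0.0606), Mat2a (0.0571) and Tead2 (0.0647) did not pass.

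Without division by length, mitochondrial genes made up 36.7% of the creatine kinase counts in control and 23.7% in cKO and Ckmt1 0.0459% of the mitochondrial pair in control; with coding length these were 34.5%, 22.1% and 0.0406%. In the Rps3a3-low control libraries the mitochondrial share was 48.1%. Depth limits Ckmt1, at 4 to 40 counts, and a filter at a mean of 1 CPM gave no value for it.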

Other observations

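Annotated genes that share exon bases with members held few counts. The antisense gene A930016O22Rik over Ckm had 5 to 38 counts per library, Strc beside Ckmt1 had 0 to 9, and the antisense gene 1700119I11Rik over Ckmt2 had 0 to 1. Without a stated strand setting these reads cannot be told apart from those of the member on the other strand. Ckb has annotated processed copies on chromosome 17 (Ckb-ps1 and Ckb-ps2), whose reads were not analysed here.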
